A study of Mus musculus with 5 samples.

Results

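The OAS genes, which encode 2′-5′-oligoadenylate synthetases and related proteins, were described in single-nucleus RNA sequencing (snRNA-seq) libraries from the brains of 2 R241E and 3 WT mice. Members were taken from a list of 8 genes (Oas1a, Oas1b, Oas1c, Oas1g, Oas2, Oas3, Oasl1 and Oasl2) by their symbols among 32285 genes. The list was matched for 7 of the 8, and Oas1b was not analysed here. All 5 mice carried Tmem119-creERT2, a Cre recombinase that tamoxifen activates and whose action the study places in microglia and, beside them, in macrophages of the brain. R241E mice were Cgas wt/R241E and WT mice were Cgas wt/wt. The allele was made in C57BL/6J zygotes and induced with tamoxifen in young adult mice, and for the WT mice of this experiment tamoxifen is not stated in the sources used here. The R241E allele is switched on by recombination at mutant lox sites, and it encodes a form of the DNA sensor cGAS that binds nucleosomes poorly. The study describes the controls in different words in different places, and the sample titles were followed. Each library came from 1 mouse, so n counts mice. The labels name hippocampus as the source, whereas the extraction protocol speaks of mouse brain, and nuclei were sorted for DAPI without the neuronal protein NeuN and the oligodendrocyte lineage protein Olig2. A treatment of aged mice with H151 or DMSO is attached to all samples alike and assigns no sample to a group, so it was not used.

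OAS enzymes detect double-stranded RNA in the cytosol and, when they bind it, join ATP into short 2′-5′-linked oligoadenylates, which act as second messengers in antiviral defence. Most OAS genes are induced by type I interferon, which cGAS elicits through STING, and in microglia they are commonly used as markers of an interferon response. Oas1a, Oas1g, Oas2, Oas3 and Oasl2 encode active synthetases. Oas1c belongs to the expanded murine Oas1 group but encodes a protein without this activity, and Oasl1 encodes an inactive relative that carries ubiquitin-like domains and restrains translation of Irf7.

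The libraries held 1381 to 2490 nuclei and 4183709 to 10130667 unique molecular identifiers (UMIs, counts of single captured RNA molecules), with medians of 2125 to 3364 UMIs per nucleus after filtering. Of 9748 nuclei, 9505 were kept in 25 clusters, which markers placed in 12 classes. There were 1006 and 524 microglia-like nuclei in R241E replicates 1 and 2, and 926, 1470 and 1451 in WT replicates 1, 2 and 3. The 10 microglial markers summed to 7344 to 8686 CPM in this class (the UMIs of a gene per 1000000 UMIs of the class in that library), and none was at 0. R241E replicate 1 stood apart in its other cells, with 133 ependymal or tanycyte-like nuclei against 12 to 19 in the other libraries and 51 pituitary-like nuclei against 0 or 1. In all, 13 barcodes occurred in 2 libraries and none in more.

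All 7 members lie on mouse chromosome 5, in a pair of groups. In the assembly of the files (mm10, with positions from RefSeq for GRCm38.p6), Oasl2 (chr5:114896926-114912245) neighbours Oasl1 (chr5:114923143-114937911). The other group holds Oas2 (chr5:120730333-120749886), Oas3 (chr5:120753098-120777684), Oas1c (chr5:120800194-120812540), Oas1g (chr5:120876142-120887613) and Oas1a (chr5:120896256-120907544). Oas1a and Oas1g are close copies, so reads that match both may be left out of their counts, and their values are uncertain to that extent.

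The promoters were read because the members rose together in microglia-like nuclei, and they are shown for a motif of the interferon-stimulated response element. RefSeq windows of 300 bases (250 before the start and 50 after it) were matched for 6 of the 8 members, and not for Oas1b and Oas2. The motif searched was GAAANNGAAA, or TTTCNNTTTC on the other strand, and overlapping matches were counted. The start is the one RefSeq's window uses, which for Oas1a, Oas1c and Oas3 lies 19, 26 and 25 bases inside the gene span given above and for Oas1g is the end of that span. Of the 6 windows, 4 held it (Oas1a, Oas1c, Oas1g and Oas3), against 3.44% of all 32851 promoter windows. Oas1a, Oas1c and Oas1g each held 2 overlapping matches and Oas3 held 1. In Oas1a the matches began 20 and 14 bases before the start and in Oas1g 18 and 12 bases before it, whereas in Oas1c they began 114 and 108 bases before it and in Oas3 75 bases before it. Those of Oas1a therefore lie almost wholly inside its gene span. The stretches around the matches are given 5′ to 3′ on the strand of the gene (the minus strand for all 4), with the matches in capitals.
Oas1a (chr5:120907526-120907575): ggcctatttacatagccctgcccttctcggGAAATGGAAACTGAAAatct
Oas1g (chr5:120887614-120887661): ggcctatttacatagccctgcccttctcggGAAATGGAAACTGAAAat
Oas3 (chr5:120777695-120777764): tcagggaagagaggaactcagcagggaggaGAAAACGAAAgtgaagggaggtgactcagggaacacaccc
Oas1c (chr5:120812583-120812658): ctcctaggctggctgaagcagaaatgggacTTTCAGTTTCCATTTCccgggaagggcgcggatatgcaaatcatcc
Over the bases before the start, the longest stretch that Oas1a and Oas1g share without a difference was 56 bases. Read on the other strand, the capitals of Oas1c are the same letters as those of Oas1a and Oas1g. The matches of Oas1a, Oas1c and Oas1g are thus the same sequence and not separate finds. The stretch printed for Oas1c also runs into the span of Oas1b (chr5:120812635-120824163), which was not analysed. The windows of Oasl1 and Oasl2 held no match, which says only that these letters are absent from those bases. Their starts lie 97 and 8 bases inside the gene spans, so fewer bases before the Oasl1 span were read.

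In microglia-like nuclei all 7 members were higher in R241E than in WT, and all 7 were called by edgeR's quasi-likelihood test at an adjusted p under 0.05. Over all 12725 genes tested, 6.04% were called higher. The median log2 fold change was 6.28 over the members and -0.005 over all genes tested. For each member both R241E libraries lay above the 3 WT libraries, which held for 20.3% of all genes tested. Most R241E nuclei of this class fell in clusters 1, 2 and 11 and most WT nuclei in clusters 3 and 19. Summed, the members reached 558 and 464 CPM in R241E, while WT had 15.4, 19.4 and 16.2 CPM.

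**Figure D1:**
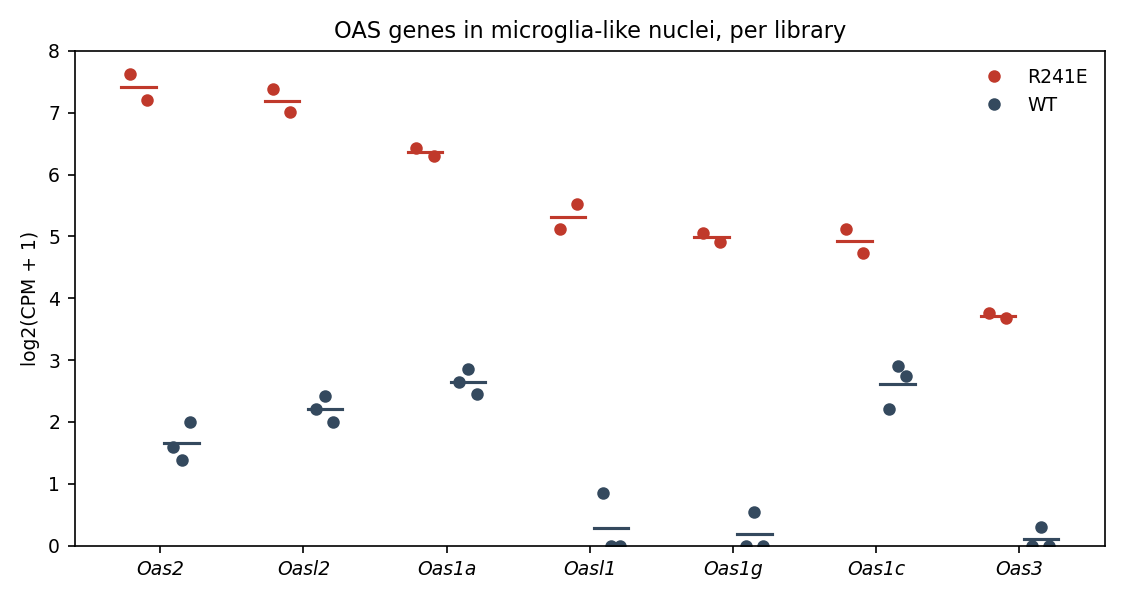
Levels of the 7 OAS genes in microglia-like nuclei, as log2(CPM + 1) of the summed UMIs of each library (points) with the mean of these values per genotype (lines), for 2 R241E and 3 WT mice. All 7 lie higher in both R241E libraries than in the 3 WT libraries.

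Among the active synthetases of the Oas1 group, Oas1a (ENSMUSG00000052776) stood at 85.1 and 77.5 CPM in R241E against 5.26, 6.23 and 4.50 CPM in WT. The groups were far apart and the mice of a genotype close together. The R241E mean was 81.3 ± 5.39 CPM (SD, n = 2) and the WT mean 5.33 ± 0.867 CPM (SD, n = 3). Its log2 fold change was 3.89 with an SE of 0.19 (edgeR adjusted p = 1.4e-09). Its near copy Oas1g (ENSMUSG00000066861) reached 32.4 and 29.1 CPM in R241E, and WT had 2 UMIs in all, both in replicate 2. With so few WT counts the pooled ratio was 159, with a 95% counting interval of 43.2 to 1324 (log2 fold change 7.0, SE 0.46, edgeR adjusted p = 5.84e-08). Leaving WT replicate 2 out gave a fitted value of 9.34, but WT then has no UMI of the gene, so that value depends on the prior count and is no bound.

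Oas2 (ENSMUSG00000032690) encodes a synthetase with a repeated OAS domain. It stood at 196 and 147 CPM in R241E against 2.02, 1.61 and 3.00 CPM in WT, means of 172 ± 34.4 (SD, n = 2) and 2.21 ± 0.712 (SD, n = 3). R241E replicate 1 was above replicate 2, and the gap to WT was many times that spread. The log2 fold change was 6.28 (SE 0.22, edgeR adjusted p = 5.81e-11), the smallest adjusted p among the members. Oas3 (ENSMUSG00000032661), the largest of the synthetases and one that prefers long double-stranded RNA, had the fewest UMIs. It reached 12.6 and 11.8 CPM in R241E, with 40 and 17 UMIs, against 1 UMI in the 3 WT libraries together. The pooled ratio was 125 with a counting interval of 21.5 to 5019 (log2 fold change 6.43, SE 0.64, edgeR adjusted p = 5.53e-06). When WT replicate 2, which held that UMI, was left out, the fitted value was 8.002, again with no WT UMI left and no bound.

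Oasl2 (ENSMUSG00000029561), an active synthetase with ubiquitin-like domains, stood at 165 and 128 CPM in R241E against 3.64, 4.38 and 3.00 CPM in WT. Its log2 fold change was 5.28 (SE 0.20, edgeR adjusted p = 7.59e-11). Oasl1 (ENSMUSG00000041827) was the member in which R241E replicate 2 was clearly the higher library, at 45.0 CPM against 33.6 CPM in replicate 1. In WT it had 2 UMIs, both in replicate 1, and the pooled ratio was 188 with a counting interval of 51.4 to 1569 (log2 fold change 7.30, SE 0.49, edgeR adjusted p = 6.42e-08). Leaving WT replicate 1 out gave 9.87, likewise against no WT UMI. Oas1g, Oas3 and Oasl1 were still called in these fits.

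Oas1c (ENSMUSG00000001166), the inactive Oas1 copy, had the smallest fold change of the 7. It stood at 33.6 and 25.6 CPM in R241E against 3.64, 6.46 and 5.70 CPM in WT, which gave 2.45 on the log2 scale with an SE of 0.26 (edgeR adjusted p = 9.81e-06). Its R241E mean was 29.6 ± 5.66 CPM (SD, n = 2) and its WT mean 5.27 ± 1.46 CPM (SD, n = 3). These levels are not scaled for gene length, so each gene is compared with itself across groups. Of the other Oas1 copies, Oas1d, Oas1e and Oas1f had no UMI in microglia-like nuclei and Oas1h had 6, all in R241E replicate 1. Of the genes that flank the groups, Rph3a beyond Oas1a (log2 fold change 0.13, SE 0.49, edgeR adjusted p = 0.927) and 2210016L21Rik beyond Oasl1 (log2 fold change 0.40, SE 0.23, edgeR adjusted p = 0.355) did not pass the threshold. Dtx1 beside Oas2 and 4930519G04Rik beside Oasl2 were too low to be tested.

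Among genes linked to the turnover of the second messenger and to the ribosome, none of the 3 listed passed the test in microglia-like nuclei (median log2 fold change -0.189). Abce1, which encodes a ribosome recycling factor, stood at -0.07 on the log2 scale (SE 0.15, edgeR adjusted p = 0.863). Pde12 and Akap7 encode phosphodiesterases that degrade 2′-5′-oligoadenylates, and they had log2 fold changes of -0.77 (SE 0.38, edgeR adjusted p = 0.263) and -0.19 (SE 0.13, edgeR adjusted p = 0.488).

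Of the 25 listed genes of the wider pathway reported here 21 were tested, of which 12 were called higher and 0 lower by edgeR. Over all 12725 genes tested, 769 (6.04%) were called higher and 414 lower. Among 8 other RNA sensors and proteins that bind double-stranded RNA, 7 rose. The largest of these changes was in Zbp1, a sensor of Z-form nucleic acid, with a WT mean of 0.588 ± 0.271 CPM (SD, n = 3, 6 UMIs in all) and an R241E mean of 32.6 ± 3.85 CPM (SD, n = 2). Its log2 fold change was 5.64. The RIG-I-like receptors rose by 2.53 for Dhx58, 1.97 for Ifih1 and 1.35 for Ddx58 on the log2 scale. Eif2ak2, the kinase PKR, which arrests translation on double-stranded RNA, rose by 1.97 on this scale and Adar, which edits such RNA, by 1.27. Tlr3, an endosomal receptor, rose by 0.57 but was not called without R241E replicate 1 (edgeR adjusted p = 0.0754). Mavs, the adaptor of the RIG-I-like receptors, overlapped between the genotypes, with 32.7 and 31.1 CPM in R241E against 27.9, 29.3 and 33.9 CPM in WT (log2 fold change 0.06, edgeR adjusted p = 0.898). The median log2 fold change of these 8 genes was 1.66.

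Of 10 genes of interferon signalling, 5 rose. Ifnb1, which encodes interferon-β, was at 4.71 and 4.84 CPM in R241E (22 UMIs) and had no UMI in the WT libraries, which is at least 16.1-fold higher when WT is set to 3 UMIs over the group. Without R241E replicate 1 the gene was too low to be tested, so its call has no check without that library. The transcription factors rose by 3.53 (Irf7), 2.35 (Stat2), 1.32 (Irf1) and 1.10 (Irf9) on the log2 scale. Jak1, Tyk2, Irf3, Ifnar1 and Ifnar2, which encode receptor chains, kinases and the factor downstream of STING, were not called. The value for Ifnar1 was 0.35 on the log2 scale (SE 0.13, edgeR adjusted p = 0.137). Cgas itself was at 83.2 and 87.9 CPM in R241E against 66.7, 72.4 and 74.4 CPM in WT, which did not pass the threshold (log2 fold change 0.24, SE 0.12, edgeR adjusted p = 0.280), and a count per gene does not show which allele was read. The 10 genes of interferon signalling had a median log2 fold change of 0.726, also with Ifnb1 at its bound.

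Some marker lists of other cells differed with genotype within microglia-like nuclei, and others overlapped. The 8 markers of border-associated macrophages summed to 98.3 and 143 CPM in R241E and to 217, 211 and 240 CPM in WT. The 8 dendritic cell markers summed to 97.1 and 100.3 CPM in R241E against 24.7 to 29.99 CPM in WT, with 3 and 2 of these markers at 0. The 10 markers of monocytes or neutrophils summed to 743 and 643 CPM against 562 to 580 CPM, and the 8 oligodendrocyte markers to 253 and 370 CPM against 162 to 182 CPM. The 12 lymphocyte markers summed to 71.0 and 64.4 CPM against 51.6 to 55.4 CPM. Fibroblast and mural cell markers were also higher in R241E, and endothelial markers lower (30.5 and 29.1 CPM against 38.3 to 41.7 CPM). The astrocyte list overlapped (298 and 281 CPM against 276 to 351 CPM), and so did the neuron list (152 and 153 CPM against 138 to 163 CPM). Those of ependymal cells or tanycytes, choroid plexus, oligodendrocyte precursors and pituitary cells overlapped too. The part of these lists in the results was not tested.

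To ask how many nuclei carried OAS transcripts, each nucleus was thinned to 1000 UMIs so that depth could not set the share, which left out 9 and 26 microglia-like nuclei in R241E and 23, 23 and 64 in WT. At this depth 30.8% (exact 95% interval 27.9 to 33.8) and 28.9% (25.0 to 33.1) of nuclei in the R241E libraries held at least 1 UMI of any member. In WT the shares were 1.33% (0.689 to 2.31), 1.94% (1.29 to 2.79) and 1.23% (0.716 to 1.96). The intervals cover counting error only. R241E had a mean of 29.9% ± 1.33 (SD, n = 2) and WT one of 1.497% ± 0.383 (SD, n = 3), and the exact two-sided permutation test gave p = 0.1, the smallest that 2 against 3 libraries allow. Unthinned, the shares were 56.8% and 41.4% in R241E and 2.96% to 4.49% in WT. In neurons, a class with few OAS UMIs, the thinned share was 2.78% and 0% in R241E (0 of 135 nuclei, which allows a share of up to 2.22% when the limit is set at 3 nuclei, and 2.70% by the exact interval) and 0% in the WT libraries (0 of 97 to 279 nuclei). Median depths before thinning were 3537 to 5326 UMIs in R241E neurons and 2573 to 3056 UMIs in R241E microglia-like nuclei.

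**Figure D2:**
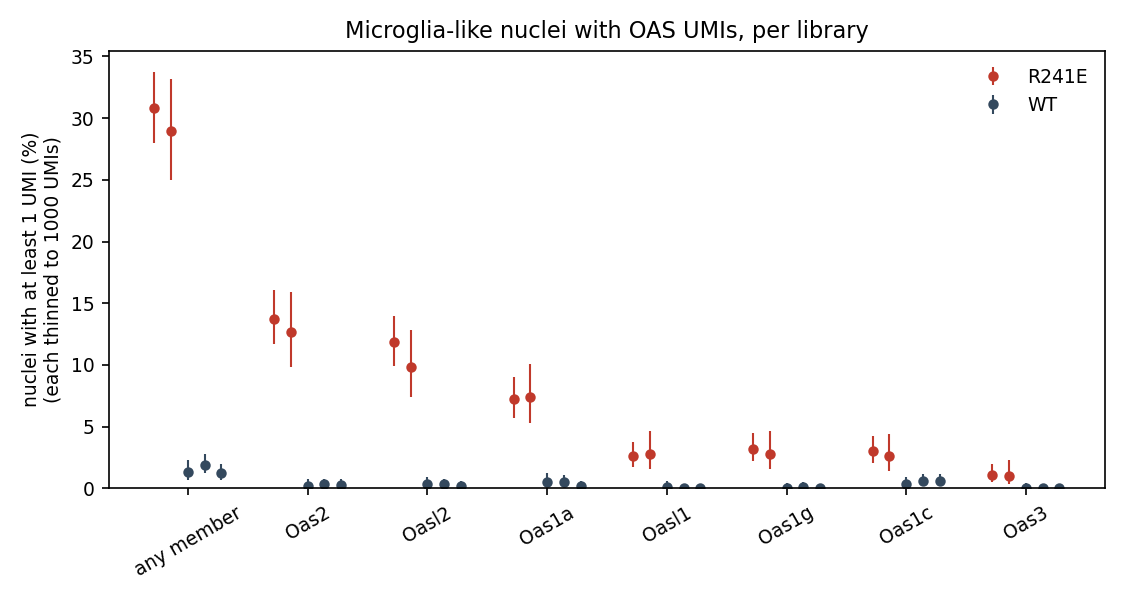
Share of microglia-like nuclei with at least 1 UMI of each gene after thinning to 1000 UMIs, as percent per library, with exact 95% intervals (counting error only). The R241E libraries lie at 30.8% and 28.9% for any OAS gene and the WT libraries at 1.23% to 1.94%.

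By gene, 13.7% and 12.7% of R241E microglia-like nuclei held Oas2, 11.8% and 9.84% held Oasl2, and 7.22% and 7.43% held Oas1a. The other members were each found in 1.00% to 3.21% of nuclei. No WT library exceeded 0.622% for any member. Oas3 was found in none of the WT nuclei at this depth (0 of 903, 1447 and 1387), which allows shares of up to 0.332%, 0.207% and 0.216% when the limit is set at 3 nuclei. The upper ends of the exact intervals were 0.408%, 0.255% and 0.266%.

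Within a genotype the OAS transcripts were unevenly spread. At 1000 UMIs, 5.42% and 4.62% of R241E nuclei held 2 members and 2.81% and 2.41% held 3 or more, up to 4. In WT at most 2 members were found in a nucleus. Before thinning, nuclei with Oas2 held a mean of 1.99 and 1.94 Oas2 UMIs in R241E, and the highest nucleus held 9. The highest for Oasl2 was 15. Cluster 2, in whose definition Oas2 itself took part beside genes of the Ifi200 family and Cxcl10, held 22.1% and 17.6% of R241E microglia-like nuclei and 64.1% and 66.8% of their OAS UMIs. The same cluster held 4, 5 and 5 nuclei of the WT libraries, or 0.340% to 0.432%, and 15.5% to 28.9% of their OAS UMIs. Outside it the R241E nuclei of cluster 1 had 284 and 246 CPM of summed members, and the WT nuclei of cluster 1 had 96.6, 67.5 and 78.3 CPM. In cluster 19, which held most nuclei of WT replicates 1 and 2, the WT level was 5.82 to 9.48 CPM.

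Nuclei were also ordered by 24 other genes of the study's interferon list. All 24 were called higher in R241E (median log2 fold change 3.89), against 6.04% of all 12725 genes tested. By the study's account, its lists for microglial states came from earlier publications. The lists used here were chosen with earlier results of these data known, so the calls are not taken as independent evidence of direction. The list also holds Oas2, Oas3, Oasl1 and Oasl2, which were left out of the count, and it shares Irf7, Stat2, Dhx58 and Zbp1 with the pathway genes above. Among R241E nuclei without a UMI of those 24 genes at 1000 UMIs, 18.0% (exact interval 12.8 to 24.4) and 17.2% (10.9 to 25.4) held an OAS UMI. In WT this was 0.465%, 1.33% and 1.06%. With 1 UMI of the list the R241E shares were 19.65% and 15.5%. At this depth a nucleus can lack list UMIs by sampling, so 0 does not mark a nucleus without expression of those genes. With 5 or more UMIs of the list the share was 63.6% and 72.5% in R241E. Such nuclei were few in WT (7, 6 and 8), of which 5, 2 and 1 held an OAS UMI.

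**Figure D3:**
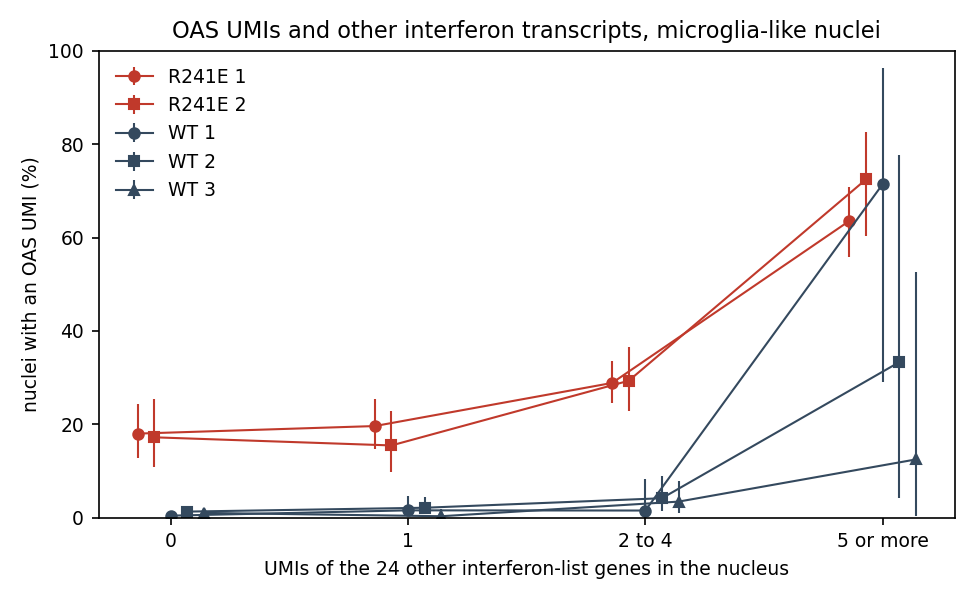
Share of microglia-like nuclei with an OAS UMI (percent, exact 95% intervals), by the UMIs of 24 other interferon-list genes in the same nucleus, each nucleus thinned to 1000 UMIs, for the 5 libraries. R241E shares go from 18.0% and 17.2% without list UMIs to 63.6% and 72.5% at 5 or more, and the WT points at 5 or more rest on 6 to 8 nuclei.

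Members were also counted in pairs. Among R241E nuclei with Oasl1, 12 of 26 and 7 of 14 held Oas2, against 12.9% and 11.6% of nuclei without Oasl1. Among those with Oas1g, 40.6% and 42.9% held Oas2, against 12.9% and 11.8% of the rest. For Oas2 and Oasl2, 20.4% and 17.5% of nuclei with Oas2 held Oasl2, against 10.5% and 8.74% of nuclei without it. These pairs were chosen after their values were seen. Of all 21 pairs, the member named second was found in a higher share of nuclei with the first than without it in 20 pairs in R241E replicate 1 and in 18 in replicate 2. Oas1g and Oas3 were found together in no nucleus of either library, and in replicate 2 the shares also ran the other way for Oas1a with Oas1g and for Oas1c with Oasl2, with 1 nucleus together in each pair. These shares are descriptions over nuclei of the same libraries.

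Outside microglia-like nuclei the members split by class. Border-associated macrophages, which reside in the meninges and perivascular spaces, held OAS transcripts in WT as well. Oas2 was at 255, 251 and 194 CPM there in WT against 401 and 322 CPM in R241E, so that both R241E libraries were the higher, yet the difference did not pass the threshold (log2 fold change 0.68, SE 0.23, edgeR adjusted p = 0.238). In WT, 61.8% to 78.0% of all Oas2 UMIs of a library came from these nuclei (54 to 81 nuclei a library), and 5 of 50, 7 of 57 and 10 of 55 from microglia-like nuclei. In R241E the order of these UMI totals was turned round, with 75.8% and 77.2% from microglia-like and 15.9% and 14.9% from border-associated macrophage-like nuclei. The totals depend on the numbers of nuclei, 1006 and 524 microglia-like against 105 and 44 macrophage-like in R241E. The R241E level of Oas2 remained higher in the macrophages, at 401 and 322 CPM against 196 and 147 CPM in microglia-like nuclei. Oasl2 did pass in these macrophages, at 251 and 267 CPM in R241E against 98.0, 50.1 and 45.7 CPM in WT (log2 fold change 2.01, SE 0.31, edgeR adjusted p = 7.82e-04), where 0.811% of 3947 genes were called higher. It was not called with coarser clusters, in which monocytes or neutrophils joined the class (log2 fold change 1.47, edgeR adjusted p = 0.129). Oas1a was at 98.0 and 70.8 CPM in R241E against 45.7, 6.27 and 5.71 CPM in WT, and it was not called (log2 fold change 2.22, edgeR adjusted p = 0.130). Leaving WT replicate 1 out gave a value of 3.76 that passed (edgeR adjusted p = 0.0175), and so did testing with no filter on low counts, which gave 2.28 (edgeR adjusted p = 0.00675). The other 4 members were too low to be tested there, with 4 to 28 UMIs in R241E. Any member was found in 61.5% and 54.5% of these nuclei in R241E and in 25.9%, 28.8% and 24.1% in WT (exact permutation p = 0.1).

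**Figure D4:**
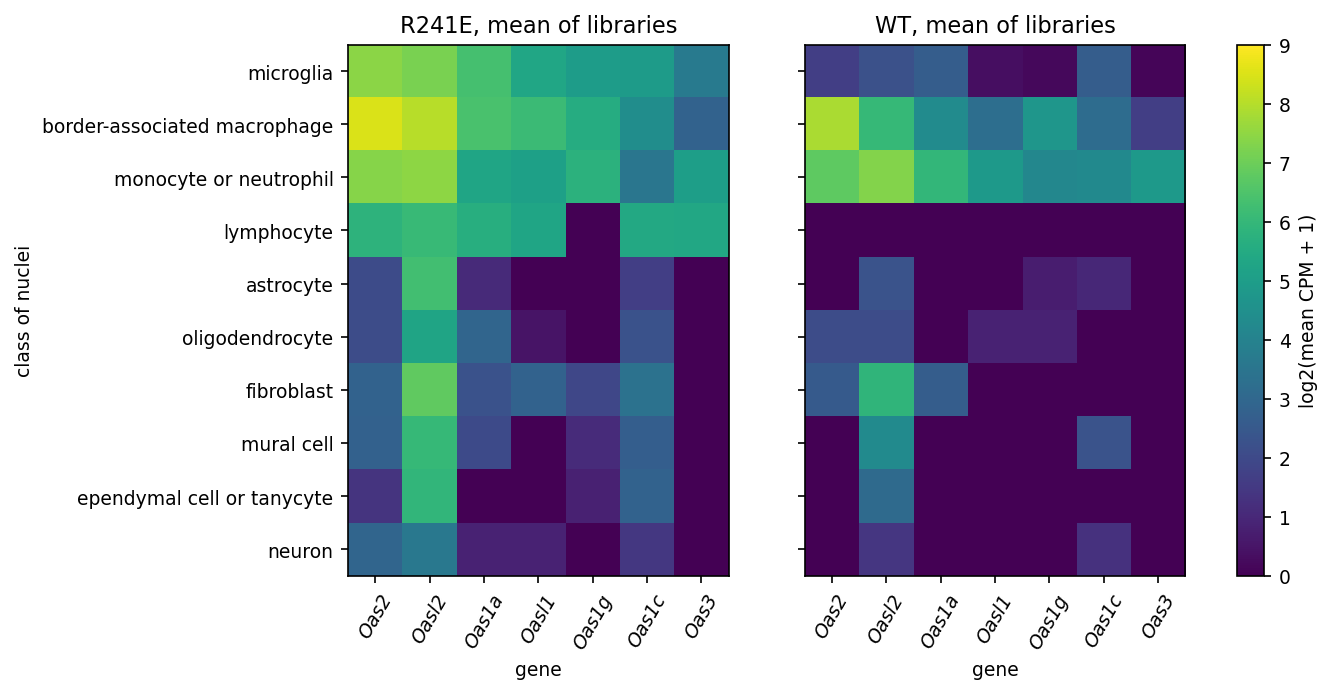
Mean level of each OAS gene in 10 classes of nuclei, as log2 of the mean CPM + 1 over 2 R241E (left) and 3 WT (right) libraries. Oas2 is high in border-associated macrophages and in monocytes or neutrophils of both genotypes, and in microglia of R241E. Oasl2 is seen in R241E in all classes shown, whereas the WT lymphocytes rest on 3, 7 and 28 nuclei.

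Oasl2 was the member found most widely. In astrocytes it was the only member high enough to be tested, at 86.5 and 66.6 CPM in R241E against 6.10, 0 and 5.86 CPM in WT, and it was called higher (log2 fold change 4.08, SE 0.49, edgeR adjusted p = 0.0031). There 0.292% of 7876 genes were called higher. The call was lost without R241E replicate 1 (edgeR adjusted p = 0.0976), without WT replicate 2 (edgeR adjusted p = 0.0824) and in limma-voom (adjusted p = 0.123), with log2 fold changes of 3.70 to 4.12. In fibroblasts Oasl2 was present in both genotypes, at 101 and 119 CPM in R241E against 64.0, 65.1 and 46.4 CPM in WT, and it was not called (log2 fold change 0.98, SE 0.29, edgeR adjusted p = 0.415, with 0.0172% of 5809 genes called in either direction). It was too low to be tested in mural cells (54.0 and 74.4 CPM against 12.98, 11.95 and 31.2 CPM, with 8 WT UMIs). The same held for Oasl2 in oligodendrocytes (18.9 and 55.0 CPM against 0, 0 and 9.70 CPM, with 4 WT UMIs). In neurons it had 13 UMIs in R241E and 3 in WT.

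The balance of Oas2 and Oasl2 differed between classes of the same libraries. In R241E microglia-like nuclei, Oas2 made up 54.1% (exact interval 51.6 to 56.6) of 1548 UMIs of both genes, and in border-associated macrophages 59.7% (53.8 to 65.4) of 288. In astrocytes it made up 3.45% (0.947 to 8.59) of 116, in fibroblasts 5.76% (2.52 to 11.03) of 139 and in ependymal or tanycyte-like nuclei 3.03% (0.369 to 10.5) of 66. By R241E library, the share was 54.3% and 53.5% in microglia-like nuclei and 2.44% and 5.88% in astrocytes. Of the 66 UMIs in ependymal or tanycyte-like nuclei, 65 came from R241E replicate 1. The 10 microglial markers summed to 254 and 360 CPM in R241E astrocytes against 305, 427 and 463 CPM in WT astrocytes, and the part of RNA from other nuclei in these values was not tested.

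**Figure D5:**
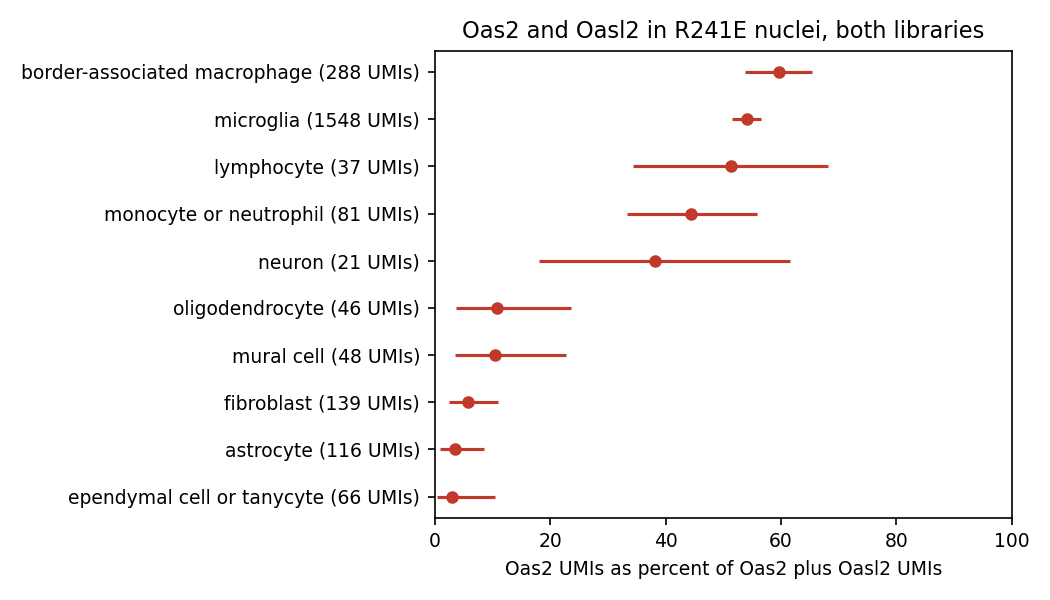
Oas2 UMIs as a percent of Oas2 plus Oasl2 UMIs in each class of R241E nuclei with at least 20 such UMIs, both libraries together, with exact 95% intervals (counting error only). Microglia-like nuclei lie at 54.1% and border-associated macrophages at 59.7%, and astrocytes lie at 3.45%.

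The classes that were not tested held further OAS transcripts. In lymphocytes, of which R241E had 120 and 35 nuclei and WT 3, 7 and 28, R241E held 112 UMIs of 6 members and none of Oas1g. The summed level was 293 CPM in both R241E libraries, at least 7.33-fold higher than in WT, where no UMI was found (3 UMIs over the group were taken as the limit). With so few WT nuclei, the comparison has little depth in WT. Nuclei with monocyte or neutrophil markers held the members in both genotypes, and the summed levels overlapped, with 616 and 398 CPM in R241E against 713, 346 and 198 CPM in WT. Oas2 alone was at 164 and 162 CPM there in R241E against 127, 141.5 and 57.8 CPM in WT. Oas3, absent from astrocytes, fibroblasts, mural cells, neurons and oligodendrocytes (0 UMIs in both genotypes), was found in these 2 immune classes, with 17 UMIs in R241E lymphocytes and 6 and 4 UMIs in R241E and WT monocytes or neutrophils.

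Whether the genotype difference itself differed between classes was tested by an interaction term with the library as a block. Against border-associated macrophages 3 members were called, where 0.742% of 10920 genes were called in either direction. The log2 fold change in microglia-like nuclei exceeded that in the macrophages by 5.56 for Oas2 (SE 0.36, edgeR adjusted p = 7.58e-50), by 3.21 for Oasl2 (SE 0.46, edgeR adjusted p = 2.40e-09) and by 5.56 for Oas1g (SE 1.06, edgeR adjusted p = 5.23e-05). Without WT replicate 1, which held 9 of the 12 Oas1g UMIs of WT macrophages, Oas1g was not called (4.06, edgeR adjusted p = 0.466). These differences hold on the log2 scale, and WT levels were higher in the macrophages. Mean Oasl2 went from 64.6 CPM in WT to 259 CPM in R241E there, and from 3.67 to 147 CPM in microglia-like nuclei. In CPM the rise of Oasl2 was thus larger in the macrophages. Mean Oas2 went from 233 to 362 CPM and from 2.21 to 172 CPM, a larger rise in microglia-like nuclei. Against oligodendrocytes Oas2 was called (6.52, SE 1.38, edgeR adjusted p = 0.00137, with 0.72% of 12494 genes called), but this rests on 5 R241E and 4 WT UMIs in oligodendrocytes, the latter all in WT replicate 3, and without that library the value was 0.85 (edgeR adjusted p = 1). By edgeR no member was called against astrocytes or neurons, where 1.01% and 0.1% of genes were called. For Oasl2 the difference between microglia-like nuclei and astrocytes was 1.18 (SE 0.81, edgeR adjusted p = 0.768). In the fits against macrophages and oligodendrocytes the spread was taken wholly from all genes together, so their p-values rest on that pooled spread. Members with no UMI in the other class gave no usable estimate.

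The genes whose pattern over classes and libraries was most like that of the summed members were Gbp7 (Pearson r = 0.886), Iigp1 (0.869), Parp14 (0.869), Ddx58 (0.868) and Gm4951 (0.864), out of 13229 genes. These correlations run over 35 sums of 7 classes in 5 libraries, which share mice and depth, and are descriptions. In microglia-like nuclei Gm4951 was at 305 and 255 CPM in R241E against 22.2 to 22.8 CPM in WT, Iigp1 at 77.3 and 102 CPM against 0.300 to 4.61 CPM, and Parp14 at 345 and 316 CPM against 79.7 to 88.2 CPM. Gbp7 was at 44.0 and 45.0 CPM against 25.6 to 34.2 CPM.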

How the data were processed

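The authors sorted nuclei, prepared 10x Genomics 3′ v3.1 libraries and deposited raw UMI counts per gene and nucleus, made with Cell Ranger against mm10, 1 matrix per mouse. The study's filter was applied: nuclei with at least 200 genes, under 4500 genes, under 10000 UMIs and under 5% mitochondrial UMIs. They were clustered in scanpy 1.11.5 (3000 variable genes, 30 components, Leiden resolution 1) and named from listed markers. The classes are rebuilt and may differ from the authors'. Scrublet called 0.442% of nuclei, so it was not relied on. An alternative left out the 156 highest scores. Nuclei of 1 mouse are not replicates, so counts were summed per library and class, and those classes whose smallest library held 20 or more nuclei were tested with edgeR 4.0.16 in R 4.3.3 (quasi-likelihood, TMM, filterByExpr, Benjamini-Hochberg over all genes of the class). Alternatives used limma 3.58.1, DESeq2 1.42.0, other normalization, no filter, each library left out, a replicate block, other filters on nuclei and coarser clusters. The fits were tested on simulated counts. Precision is limited by 2 against 3 mice and by few UMIs of several members in WT. The members and gene lists were chosen with earlier results of these data known. Named were all members, pathway genes that passed, Abce1, Pde12, Akap7, Cgas, flanking genes and the 5 most alike genes (at least 10 UMIs in each of 5 sums). Pairs, strata and the genes of untested classes were chosen after their values were seen. Some items of the lists are not reported here, and list counts leave them out.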

Additional observations from a re-analysis of the deposited data

Results flagged for a closer look

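By the interaction test, 4 genotype differences, of the members Oas2 (in 2 comparisons), Oasl2 and Oas1g, differed between microglia-like nuclei and another class. Against border-associated macrophages the log2 fold change in microglia-like nuclei was larger by 5.56 for Oas2, by 3.21 for Oasl2 and by 5.56 for Oas1g, and against oligodendrocytes it was larger by 6.52 for Oas2. The values for Oas2 and Oasl2 against the macrophages were called in all 8 alternatives run. That of Oas1g was not called without WT replicate 1, and that of Oas2 against oligodendrocytes was not called without the library block (6.502, edgeR adjusted p = 0.0529), without R241E replicate 1 (6.01, edgeR adjusted p = 0.309) or without WT replicate 3 (0.85, edgeR adjusted p = 1).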

How the results depend on the processing

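The number of members called in microglia-like nuclei was 7 under all 13 alternatives, including the replicate block, and the highest adjusted p of any member was 0.00248 (Oas1c without R241E replicate 1). The replicate block changed no call. Same-numbered mice had correlations of deviations of 0.106 and -0.0196. With 2 R241E mice the deviations mirror each other, so these values cannot decide whether the numbers pair the samples. In other classes 2 calls were made, 1 with limma-voom, 1 at Leiden resolution 0.5 and 5 without the filter on low counts, and 1 to 3 when a library was left out. The pathway genes called numbered 12, and 10 without R241E replicate 1. The difference in the share of microglia-like nuclei with any member was 28.4 percentage points, 16.1 when thinned to 500 UMIs and 45.6 without thinning, as depth sets such shares, and 27.4 to 29.3 when a library was left out. Differences between classes were called 4 times, 3 times without the library block and 3 or 4 times when a library was left out. Alternatives that gave no adjusted p, such as Ifnb1 without R241E replicate 1, were not counted. Of 401 counted alternatives of 33 single values, 387 kept their direction and side of the threshold, 9 lost the call and 2 gained it. The direction of Abce1, which was not called, turned under 3 of them (0.0898 without R241E replicate 1, 0.0288 without WT replicate 3 and 0.0553 with the replicate block), and leaving out a library gave -0.1876 to 0.0898. The causes were not tested. The summed level of members in R241E microglia-like nuclei (511 CPM) was 511 to 512 CPM under 3 alternatives added after seeing the data. With 2 R241E mice, few UMIs of Oas1g, Oas3 and Oasl1 in WT, and few nuclei in several classes, smaller differences could not be detected.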
